A study of Mus musculus with 8 samples.

Results

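The inhibin, activin, follistatin and anti-Müllerian hormone (AMH) system was described here by 10 genes out of 21627 protein-coding genes: Inha, Inhba, Inhbb, Fst, Amh, Amhr2, Bmpr2, Bmpr1b, Acvr2a and Smad3. The genes were chosen by name, with earlier results of these data known. Open chromatin was read in a window of each gene body plus 50 kb on either side, in 8 deposited ATAC-seq peak lists of mouse granulosa cells, which enclose and nourish the oocyte in its follicle. Merging all 8 lists gave 207 regions in these windows, out of 98245 in the genome, and 79 of them (38.2%) were held by every list, against 37.9% of all regions.

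In ATAC-seq the Tn5 transposase inserts sequencing adapters into open chromatin, so a peak marks sequence that the enzyme could reach. At 21 days of age all mice had an injection of eCG (5 IU; PMSG in the library titles), a gonadotropin that drives follicle growth. After 46 h one set was killed and another had an injection of hCG (5 IU), which acts on the luteinising hormone (LH) receptor, and was killed 6 h later. The LH experiment had 2 libraries titled hCG and 2 titled PMSG from wild-type CBA x C57BL/6 F1 mice, and asked how accessibility differs after hCG. The PR experiment had 2 wild-type (WT) and 2 progesterone receptor knockout (KO) libraries of the strain C.129S7(B6)-Pgrtm1Bwo/OmcJ, all placed after hCG by the design text. Every library pooled granulosa cells collected by puncture of ovaries from 2 to 3 mice, so follicles of many stages and any cells released with them were read together. The time tags of the LH libraries go against their titles (0 h for hCG, 6 h for PMSG), while the source names (peri-ovulatory for hCG, pre-ovulatory for PMSG) go with the titles, and every direction given here follows the titles. All PR libraries have a time tag of 6 h and a source name of pre-ovulatory cells.

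Activins are dimers of the β subunits made from Inhba and Inhbb, and inhibins pair one of those subunits with the α subunit made from Inha. Ligands of this family bind type 2 receptors (Acvr2a for activins, Amhr2 for AMH, Bmpr2 for bone morphogenetic proteins), which act with type 1 receptors such as Bmpr1b and through SMAD proteins that enter the nucleus. Follistatin, made from Fst, binds activins and keeps them from their receptors, and granulosa cells of growing follicles are a main source of inhibin and AMH.

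The lists held between 55654 and 84313 intervals: 65567 and 62327 in hCG, 57992 and 58780 in PMSG, 80137 and 84313 in WT, and 58851 and 55654 in KO. They give no read numbers, so depth is unknown, and a peak missing from one list can reflect a less sensitive library. Counts are therefore given for all peaks and again for the same number of peaks from every list of an experiment, 57992 in the LH and 55654 in the PR experiment, taken by the authors' −log10 q-value. With 2 libraries against 2 an exact two-sided permutation test cannot give a p below 0.333, so no region was tested, and separation of the groups is described by whether the libraries overlap. Cell type markers were scored at the start site, or at either gene end where no start was listed. Of 7 granulosa cell genes, 5 (Foxl2, Fshr, Cyp19a1, Gja1 and Esr2) had a start-site peak in every list, and Nr5a2 (start site) and Hsd17b1 (gene ends) had none. Lists had a scored peak at 0 to 2 of 3 theca, 1 of 5 oocyte (Gdf9, at a gene end), 0 to 1 of 4 immune, 1 to 2 of 4 endothelial and 0 of 4 stroma and surface epithelium genes. Of these other-cell markers, Cd68 (immune) and Ptch1 (theca) moved with the hormone groups, with a start-site peak in both hCG and neither PMSG list, while Ptprc (immune) and Insl3 (theca) had none in any list and Cyp17a1 (theca) had a gene-end peak in PMSG replicate 2 and WT replicate 1 alone. Their part in the results below was not tested. The start site of Pgr itself had a peak in both WT and both KO lists, in hCG replicate 2 and in none of the other 3 LH lists, and since the labels do not say which part of the gene is altered, this checks no genotype.

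RefSeq sequences of GRCm38.p6, from 250 bases before to 50 after the start, were at hand for 8 of the 10 genes. Fst and Amh had no entry. The 5 shown first are those in which a searched motif was found, and that of Inhba is shown because peaks covered it to different extents in different libraries. Capitals mark matches, on either strand, to GGGCGG (the GC box bound by SP factors) and to AAGGTCA (a half-site of the type bound by SF-1, a regulator of gonadal genes).

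Inhbb, chr1:119422199-119422498, minus strand: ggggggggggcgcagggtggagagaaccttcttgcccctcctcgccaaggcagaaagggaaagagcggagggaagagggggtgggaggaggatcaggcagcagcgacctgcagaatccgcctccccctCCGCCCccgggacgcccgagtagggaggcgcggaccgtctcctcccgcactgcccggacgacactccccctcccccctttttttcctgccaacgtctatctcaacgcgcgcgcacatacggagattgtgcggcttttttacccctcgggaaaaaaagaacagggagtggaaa
Amhr2, chr15:102445117-102445416, plus strand: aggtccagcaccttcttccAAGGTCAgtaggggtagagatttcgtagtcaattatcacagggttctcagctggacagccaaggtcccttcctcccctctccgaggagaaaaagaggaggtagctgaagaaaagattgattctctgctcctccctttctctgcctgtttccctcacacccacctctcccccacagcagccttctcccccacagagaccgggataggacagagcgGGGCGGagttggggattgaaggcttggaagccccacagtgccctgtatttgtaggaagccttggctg
Bmpr2, chr1:59764029-59764328, plus strand: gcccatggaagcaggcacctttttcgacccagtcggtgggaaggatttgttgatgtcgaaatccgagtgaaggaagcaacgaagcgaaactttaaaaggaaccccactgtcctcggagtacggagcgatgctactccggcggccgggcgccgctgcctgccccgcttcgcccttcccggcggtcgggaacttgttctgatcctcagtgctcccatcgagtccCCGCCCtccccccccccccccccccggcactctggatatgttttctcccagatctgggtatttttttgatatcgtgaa
Acvr2a, chr2:48813859-48814158, plus strand: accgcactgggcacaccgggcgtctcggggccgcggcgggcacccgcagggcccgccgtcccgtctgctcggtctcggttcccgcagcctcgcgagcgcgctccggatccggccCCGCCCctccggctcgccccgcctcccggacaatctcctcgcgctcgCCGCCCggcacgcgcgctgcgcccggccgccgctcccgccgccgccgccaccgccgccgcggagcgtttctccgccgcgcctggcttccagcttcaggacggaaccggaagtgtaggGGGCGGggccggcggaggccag
Smad3, chr9:63757945-63758244, minus strand: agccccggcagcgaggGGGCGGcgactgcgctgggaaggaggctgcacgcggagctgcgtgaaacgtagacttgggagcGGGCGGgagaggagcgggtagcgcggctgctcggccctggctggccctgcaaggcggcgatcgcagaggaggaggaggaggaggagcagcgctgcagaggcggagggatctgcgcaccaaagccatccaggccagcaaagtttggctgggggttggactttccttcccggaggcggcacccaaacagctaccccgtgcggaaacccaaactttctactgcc
Inhba, chr13:16011601-16011900, plus strand: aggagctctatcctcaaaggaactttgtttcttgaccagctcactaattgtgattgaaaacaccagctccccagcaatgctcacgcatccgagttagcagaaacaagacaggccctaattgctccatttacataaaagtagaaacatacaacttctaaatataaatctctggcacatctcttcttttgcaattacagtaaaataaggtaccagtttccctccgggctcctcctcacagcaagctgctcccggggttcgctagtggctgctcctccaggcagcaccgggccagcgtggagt

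The GC box occurred in 5 of the 8 genes' promoters, once each in Inhbb, Amhr2 and Bmpr2, at 2 places in Smad3 and at 3 in Acvr2a, and 46.7% of all 21044 promoter windows of the same length held one. The AAGGTCA half-site occurred in Amhr2 alone among the 8, and in 4.06% of all windows. Neither TGACG (a half-site of the cAMP response element, in 23.8% of all windows), nor TGANTCA (AP-1, 7.04%), nor TGTGGT (RUNX, 14.8%) was found in any of the 8. Peaks covered all 300 bases of the Inhbb, Acvr2a and Smad3 windows in each of the 8 lists. The same held for the window of a Bmpr1b start at 141931420 on chromosome 3, whereas no list had a peak in the window of another Bmpr1b start at 141982264. The Inhba window was covered over 232 and 300 bases in hCG, 42 and 29 in PMSG, 65 and 300 in WT and 300 and 300 in KO, so both hCG values lay above both PMSG values and the WT replicates stood apart.

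Start-site and gene-end regions were held by all 4 LH libraries for each of the 10 genes, so the hormone groups differed there in rank and width, not in presence. A rank percentile is the position of a peak's fold enrichment, as the authors' peak caller gave it, within its own list, with 100 for the highest. Percentiles of single regions come from the lists of the same length unless a whole list or a library's own list is named. Of 11 such regions, 8 ranked higher in both PMSG than in both hCG libraries, 1 ranked higher in hCG, and 2 overlapped. Among the 7 that lay at a listed start site, 6 ranked higher in PMSG. Over all genes, 61.2% of 9939 shared start-site regions ranked higher in PMSG and 11.9% higher in hCG, so the direction at these genes was also that of most start sites.

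The region over the Inhbb start site, which encodes the activin βB subunit, had the widest gap between the nearest libraries of the hormone groups among the 11, while by group means the Smad3 start differed by more. It lay at chr1:119420223-119422949, at percentile 4.64 and 4.85 in hCG and 32.7 and 37.0 in PMSG. The authors' fold in it was 4.11 and 4.21 in hCG and 7.38 and 8.08 in PMSG, values that are relative to each library's own background. Its width went the other way: peaks covered 2666 and 2678 bp in hCG and 1208 and 1185 bp in PMSG. The Inhbb start was thus covered by a long, low peak in the hCG libraries and by a shorter one of higher fold in the PMSG libraries, with no overlap in either measure.

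The Inhba region at its start, chr13:16011551-16012693, lay at percentile 3.72 and 3.73 in hCG and 8.40 and 8.18 in PMSG, near the bottom of every list. The region over the gene end of Inha nearest its start, chr1:75505299-75507334, which also lies in the neighbouring gene Obsl1, was at 3.51 and 1.95 in hCG and 20.1 and 21.7 in PMSG. The Fst region over the higher-coordinate end of the gene, chr13:114458271-114459682, was at 5.82 and 8.81 in hCG and 25.5 and 27.7 in PMSG. In all 3 the PMSG values lay above the hCG values, and in all 3 the peaks were wider in both hCG libraries, as in Inha with 1988 and 1923 bp against 1235 and 1389 bp. The 2 AMH genes did not separate by rank in lists of the same length. The Amh region over the higher-coordinate end of the gene, chr10:80806972-80807775, was at 22.1 and 27.8 in hCG and 26.8 and 18.2 in PMSG. In the whole lists it was at 31.1 and 32.8 in hCG and 26.8 and 19.3 in PMSG. Its peaks were wider in both hCG libraries, with 621 and 804 bp against 548 and 577 bp. The Amhr2 region, chr15:102445259-102446983, was at 9.85 and 6.94 in hCG and 13.5 and 8.49 in PMSG.

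Regions at the starts of the more widely used receptors and of Smad3, one of the SMADs that carry activin signals, ranked above the start-site or gene-end regions of the subunit, Fst and AMH genes in each LH list of the same length. Those of Inha, Fst and Amh lay at a gene end. Neither Fst nor Amh had a listed start, so their values are not those of a known start site. The smallest margin was in hCG replicate 2, with Smad3 at 35.8 and Amh at 27.8. The Bmpr2 region, chr1:59762622-59764239, was at percentile 49.6 and 51.5 in hCG and 78.0 and 79.1 in PMSG. The Smad3 region, chr9:63757372-63758642, was at 50.4 and 35.8 in hCG and 76.5 and 74.5 in PMSG. The Acvr2a region, chr2:48813372-48815157, was at 76.8 and 69.4 in hCG and 88.3 and 90.8 in PMSG, the highest of the start sites, with peaks of 1786 and 1685 bp in hCG against 1009 and 1005 bp in PMSG. The groups did not overlap at any of these. Bmpr1b, a type 1 receptor, had a start-site region inside the gene, chr3:141931330-141931796, at 45.7 and 43.5 in hCG and 71.4 and 72.1 in PMSG, and it was the one start-site region that was wider in both PMSG libraries (460 and 462 bp against 435 and 423 bp). At the higher-coordinate end of Bmpr1b, chr3:142168535-142169740, the order was the reverse by a small margin, 83.5 and 89.1 in hCG against 82.3 and 83.3 in PMSG.

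**Figure D1:**
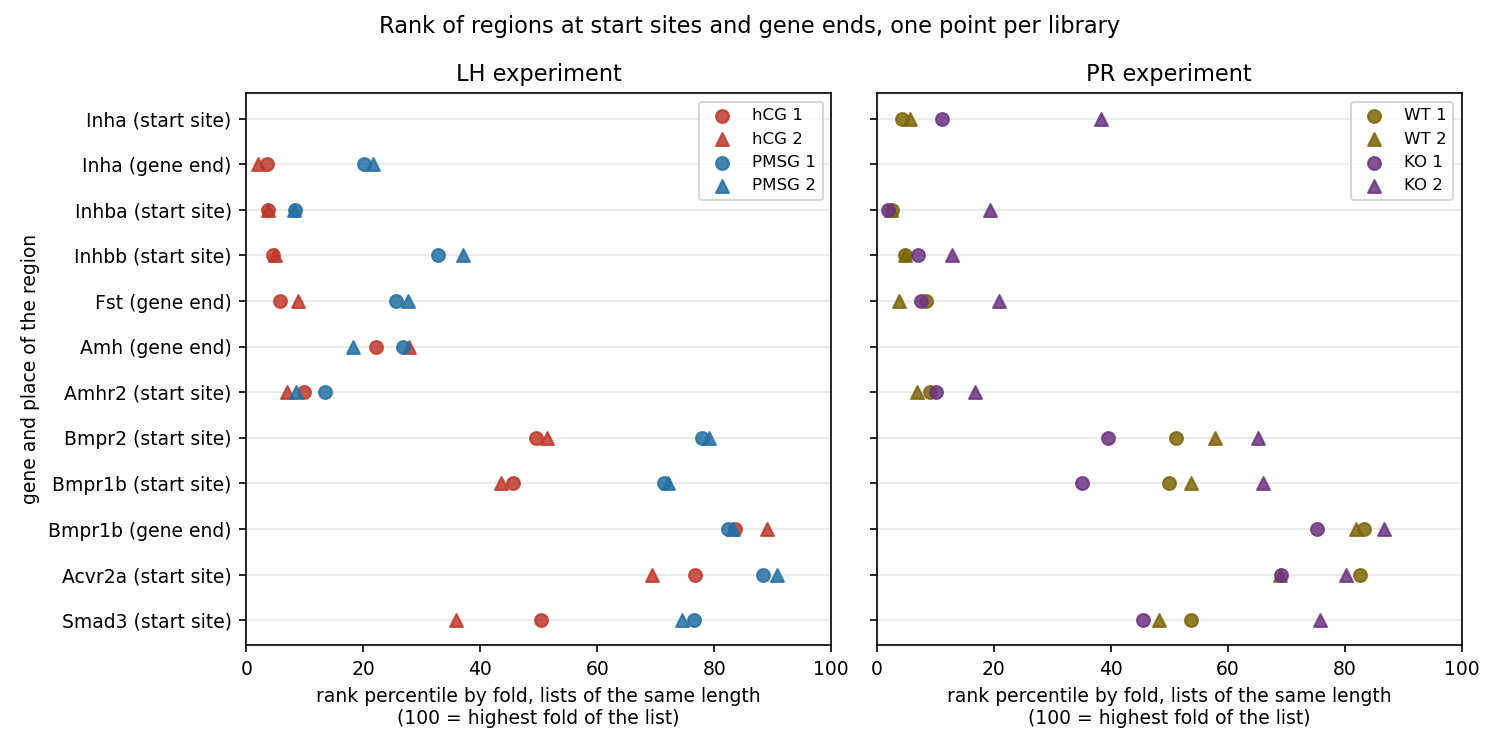
Rank percentile by fold (x axis, 0 to 100, lists of the same length within an experiment) of the region at the start site or gene end of each gene (y axis), one point per library, with circles for replicate 1 and triangles for replicate 2. In the LH experiment both PMSG points lie to the right of both hCG points at 8 of 11 regions. In the PR experiment KO replicate 2 lies to the right of KO replicate 1 in each row with points. Each region is drawn once, as a start site where it overlaps a start window. The Inha region is therefore in the gene-end row for LH and in the start-site row for PR. The Amh row has no PR points because no PR region reached that gene end.

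Widths were compared over all regions shared by the 4 LH libraries with all peaks. Of 88 such regions in the 10 windows, 41 (46.6%) were wider in both hCG libraries, against 64.2% of all shared regions, and 24 (27.3%) were wider in both PMSG libraries, against 11.7%. In lists of the same length, 17 of 77 (22.1%) were wider in both PMSG libraries against 9.83% of all, and 12 of 62 (19.4%) against 10.4% where those peaks were taken by fold. The share that was wider in PMSG was thus above the background in these 3 settings, by less in the shortened lists, and with all peaks 7 of the 24 lay in the Inhbb window, where 1 region, that at the start site, was wider in hCG. At start sites over all genes 82.1% were wider in hCG and 2.73% in PMSG.

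Across whole windows, 186 regions were found in the LH experiment, and 88 were held by all 4 libraries. With all peaks, 33 regions (17.7%) were held by both hCG and neither PMSG library (hCG-only), and the background over all 81943 regions was 17.7%. The reverse, PMSG-only, held for 28 regions (15.1%) against a background of 10.4%. In lists of the same length, 28 of 178 regions (15.7%) were hCG-only against 15.6% of all, and 38 (21.3%) were PMSG-only against 13.4% of all. In both settings the hCG-only share was close to that of all regions and the PMSG-only share lay above it. Of the 28 PMSG-only regions with all peaks, 8 lay in the Bmpr1b and 5 in the Inhbb window. In lists of the same length 12 and 7 of the 38 did. Where the same number of peaks was taken by fold instead, the hCG-only share was 9.52% against 15.3% of all, and the PMSG-only share 24.4% against 13.3%. Counting a library only where it covered 50% of the region gave 27.4% against 23.4% for hCG-only and 16.7% against 11.2% for PMSG-only. In gene bodies alone the shares were 15.4% against 17.7% and 12.1% against 10.4%. Among shared regions with all peaks, 27 of 88 (30.7%) ranked higher in both hCG libraries against a background of 32.4%, and 42 (47.7%) higher in both PMSG libraries against 39.4%. In lists of the same length the counts were 23 of 77 (29.9%) against 28.1%, and 37 (48.1%) against 45.6%. In gene bodies alone, with all peaks, the order turned, with 16 of 38 (42.1%) higher in hCG against 32.4%, and 14 (36.8%) higher in PMSG against 39.4%. In all, 47 of the 186 lay in another coding gene and not in the member, and such regions cannot be assigned to either gene from peak lists.

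The genes went different ways. Smad3 had 8 hCG-only and 0 PMSG-only regions among 27 with all peaks, and 7 and 2 among 26 with the same number of peaks, or 2 more hCG-only than PMSG-only where those peaks were taken by fold. Bmpr1b had 2 and 8 among 44 with all peaks, and 1 and 12 among 41, and without hCG replicate 2 the excess of PMSG-only regions was 3 in place of 6. Inhbb had 1 and 5 among 16, and 1 and 7 with the same number of peaks, and Fst had 2 and 3 among 11, and 1 and 5 among 10, and without hCG replicate 1 the excess of PMSG-only regions in Fst was 3 with all peaks. Amh had 7 and 3 among 22, and 5 and 3 among 21, but 1 fewer hCG-only than PMSG-only where the peaks were taken by fold. Its window takes in 8 other coding genes, and 6 of the 7 hCG-only regions with all peaks lay in Dot1l or Lingo3 and the other in Jsrp1. The remaining genes had no more than 4 of either kind with all peaks: Inha 2 and 2, Inhba 3 and 2, Amhr2 3 and 1, Bmpr2 4 and 4, and Acvr2a 1 and 0. The difference of 1 was 0 in Inhba without hCG replicate 1 or PMSG replicate 2 and 0 in Acvr2a without hCG replicate 2, and the 0 of Inha became 1 without hCG replicate 2.

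**Figure D2:**
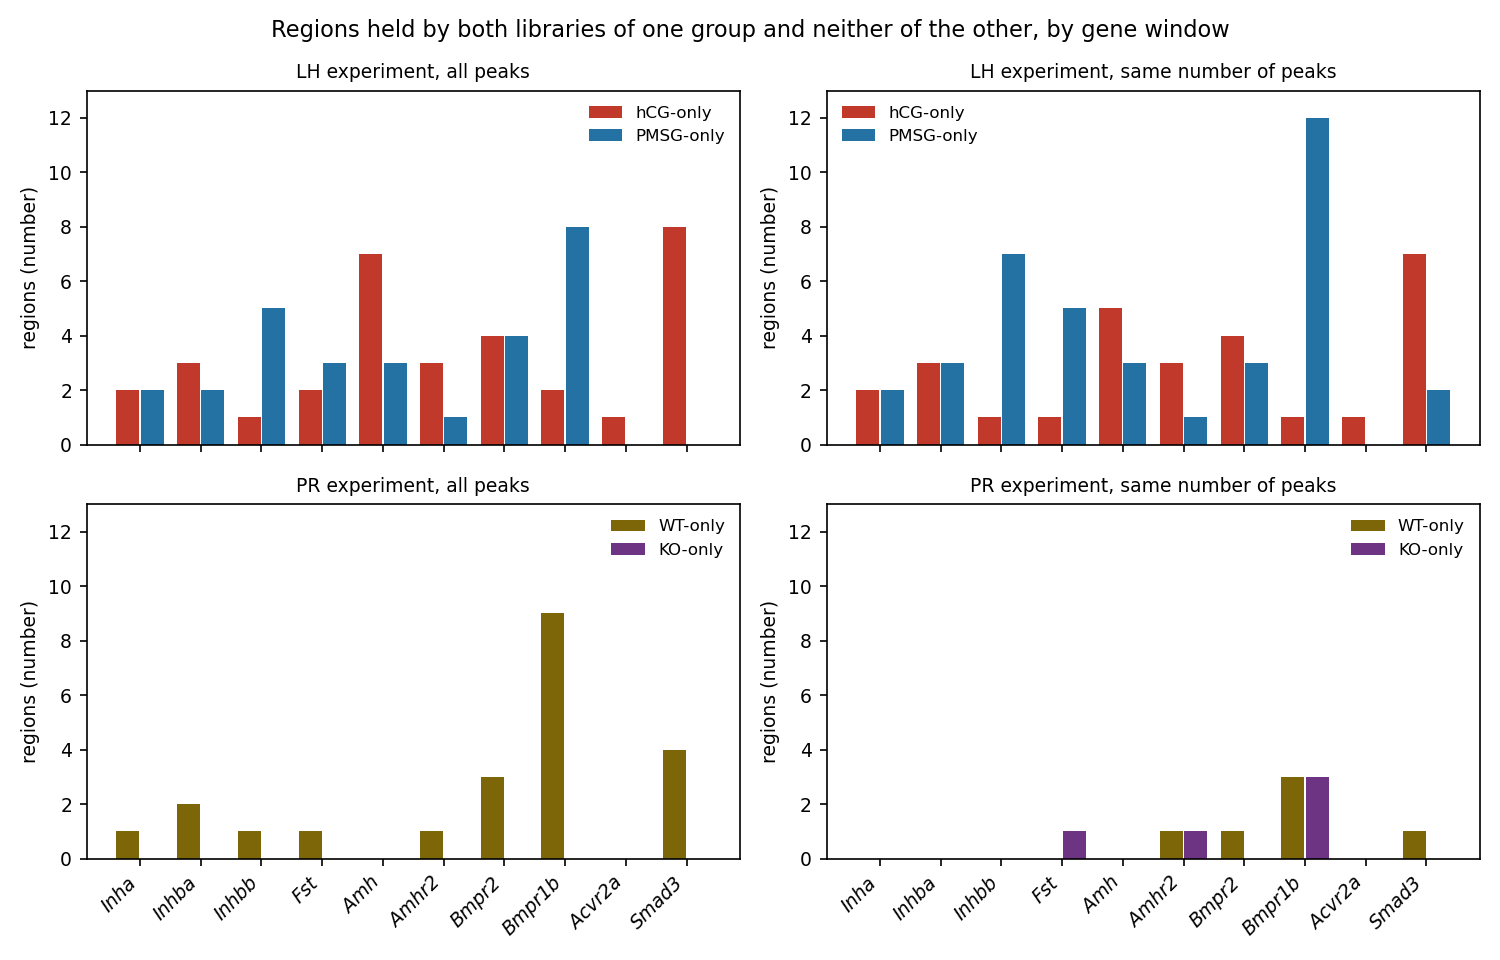
Number of regions (y axis) held by both libraries of one group and neither of the other in the window of each gene (x axis), for the LH experiment (top) and the PR experiment (bottom), with all peaks (left) and with lists of the same length (right). Smad3 shows 8 hCG-only and 0 PMSG-only regions and Bmpr1b 2 and 8 with all peaks, and the 22 WT-only regions of the PR experiment fall to 6 when the lists have the same length.

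Of the 8 hCG-only regions of Smad3, 7 lay inside the gene, at 2.77 to 91.4 kb from the start, and 1 lay 33.9 kb before it. The one of highest mean rank, chr9:63702479-63703710, 54.9 kb into the gene, was at percentile 47.8 and 48.9 of the whole hCG lists, and both PMSG lists lacked it. All 4 PR libraries, which are from mice given hCG, held it at 42.4, 57.5, 48.2 and 44.8 of their own lists. A region 14.1 kb into the gene, chr9:63743699-63744197, was also hCG-only and held by all 4 PR libraries. The shared regions of this window went both ways. In the neighbouring gene Aagab, chr9:63610847-63611446, the percentile was 65.3 and 61.1 in hCG and 14.1 and 9.47 in PMSG in lists of the same length. Inside Smad3, chr9:63662217-63663377 was at 7.25 and 6.10 in hCG and 53.5 and 44.1 in PMSG, so large rank differences in both directions lay within 1 window. Of their own whole lists, which differ in length, WT replicates 1 and 2 and KO replicates 1 and 2 had the Aagab region at 66.7, 76.4, 75.2 and 64.2. They had the region inside Smad3 at 47.3, 45.2, 27.2 and 45.4. In the whole LH lists the Aagab region was at 69.3 and 63.8 in hCG and 14.1 and 10.7 in PMSG. The region inside Smad3 was there at 12.2 and 8.88 in hCG and 53.5 and 44.9 in PMSG.

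Bmpr1b, the longest of the genes at 332451 bp, held the most regions. Among those shared by the 4 LH libraries its largest gap was at chr3:141974214-141974699, 7.81 kb into the gene from the nearest start, with percentiles of 80.1 and 77.1 in hCG and 11.6 and 10.2 in PMSG. The authors' fold there was 12.6 and 12.3 in hCG and 5.27 and 5.40 in PMSG. Both WT libraries held this place at 43.7 and 43.9 of their whole lists and neither KO library did, but no PR library held it in lists of the same length. The reverse gap was at chr3:141893305-141893788, with 3.81 and 3.89 in hCG and 60.8 and 45.6 in PMSG, and the PR libraries had it at 31.6 and 26.2 (WT) and 6.93 and 38.6 (KO) of their whole lists. The hCG-only region of highest rank, chr3:141950249-141950754, was at 72.2 and 83.7 of the whole hCG lists and was held by both WT libraries and KO replicate 1 but not by KO replicate 2. The PMSG-only region of highest rank, at 58.8 and 68.4 of the whole PMSG lists, was chr3:141811500-141811684 in the neighbouring gene Unc5c, and 7 of the 8 PMSG-only regions lay inside Bmpr1b itself.

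In the Fst window, with no other coding gene in it, regions outside the gene separated the groups most. The region chr13:114420330-114420878, 31.4 kb from the gene, was at percentile 50 and 41.8 in hCG and 4.71 and 3.61 in PMSG. Of the whole PR lists it was at 11.02 and 48.0 in WT and 19.9 in KO replicate 1, and KO replicate 2 lacked it. A hCG-only region, chr13:114500951-114501391, 42.0 kb from the gene on the other side, was at 58.8 and 49.4 of the whole hCG lists and was held by all 4 PR libraries. A PMSG-only region lay 26.7 kb from the gene on that same side, chr13:114485642-114485981, at 63.5 and 61.1 of the whole PMSG lists. WT replicate 1 held it too, at 68.6 of its own list, and WT replicate 2 and both KO libraries did not.

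Of the subunit genes, Inhba and Inhbb each had 1 PMSG-only region of middle rank, and the other PMSG-only regions of these genes and the 2 of Inha lay at percentile 5.49 or lower in the whole PMSG lists. In Inhba, chr13:16005640-16005945 lay inside the gene, 6.06 kb before the listed start, at 44.5 and 42.7 of the whole PMSG lists. Both WT libraries held it in their whole lists, at 5.58 and 5.02, and neither KO library did, while in lists of the same length no PR library held it. Another Inhba region, chr13:16026343-16027048, was shared and ranked higher in hCG, at 20.1 and 19.4 against 1.95 and 1.31 in PMSG, and was at 13.1 and 31.7 (WT) and 11.5 and 6.72 (KO) of the whole PR lists. In the Inhbb window, chr1:119463460-119463634, 41.3 kb before the start, was PMSG-only at 31.9 and 49.2 of the whole lists, and here too both WT libraries and neither KO library held it with all peaks, and no PR library did in lists of the same length. The shared region chr1:119397692-119398597, beyond the gene, was at 10.9 and 6.79 in hCG and 51.8 and 51.3 in PMSG, and at 47.6 and 27.5 (WT) and 7.48 and 39.6 (KO) of the whole PR lists. In the Inha window, the largest gap among regions with a peak in all 4 lists of the same length was at chr1:75545957-75546950 in Slc4a3, which was at 45.8 and 36.0 in hCG and 73.9 and 69.3 in PMSG. A shared region in Asic4, chr1:75469461-75469810, was farther apart in the whole lists, at 1.86 and 5.23 in hCG and 47.7 and 57.5 in PMSG, but its hCG replicate 1 peak was not among those of the same-length list.

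**Figure D3:**
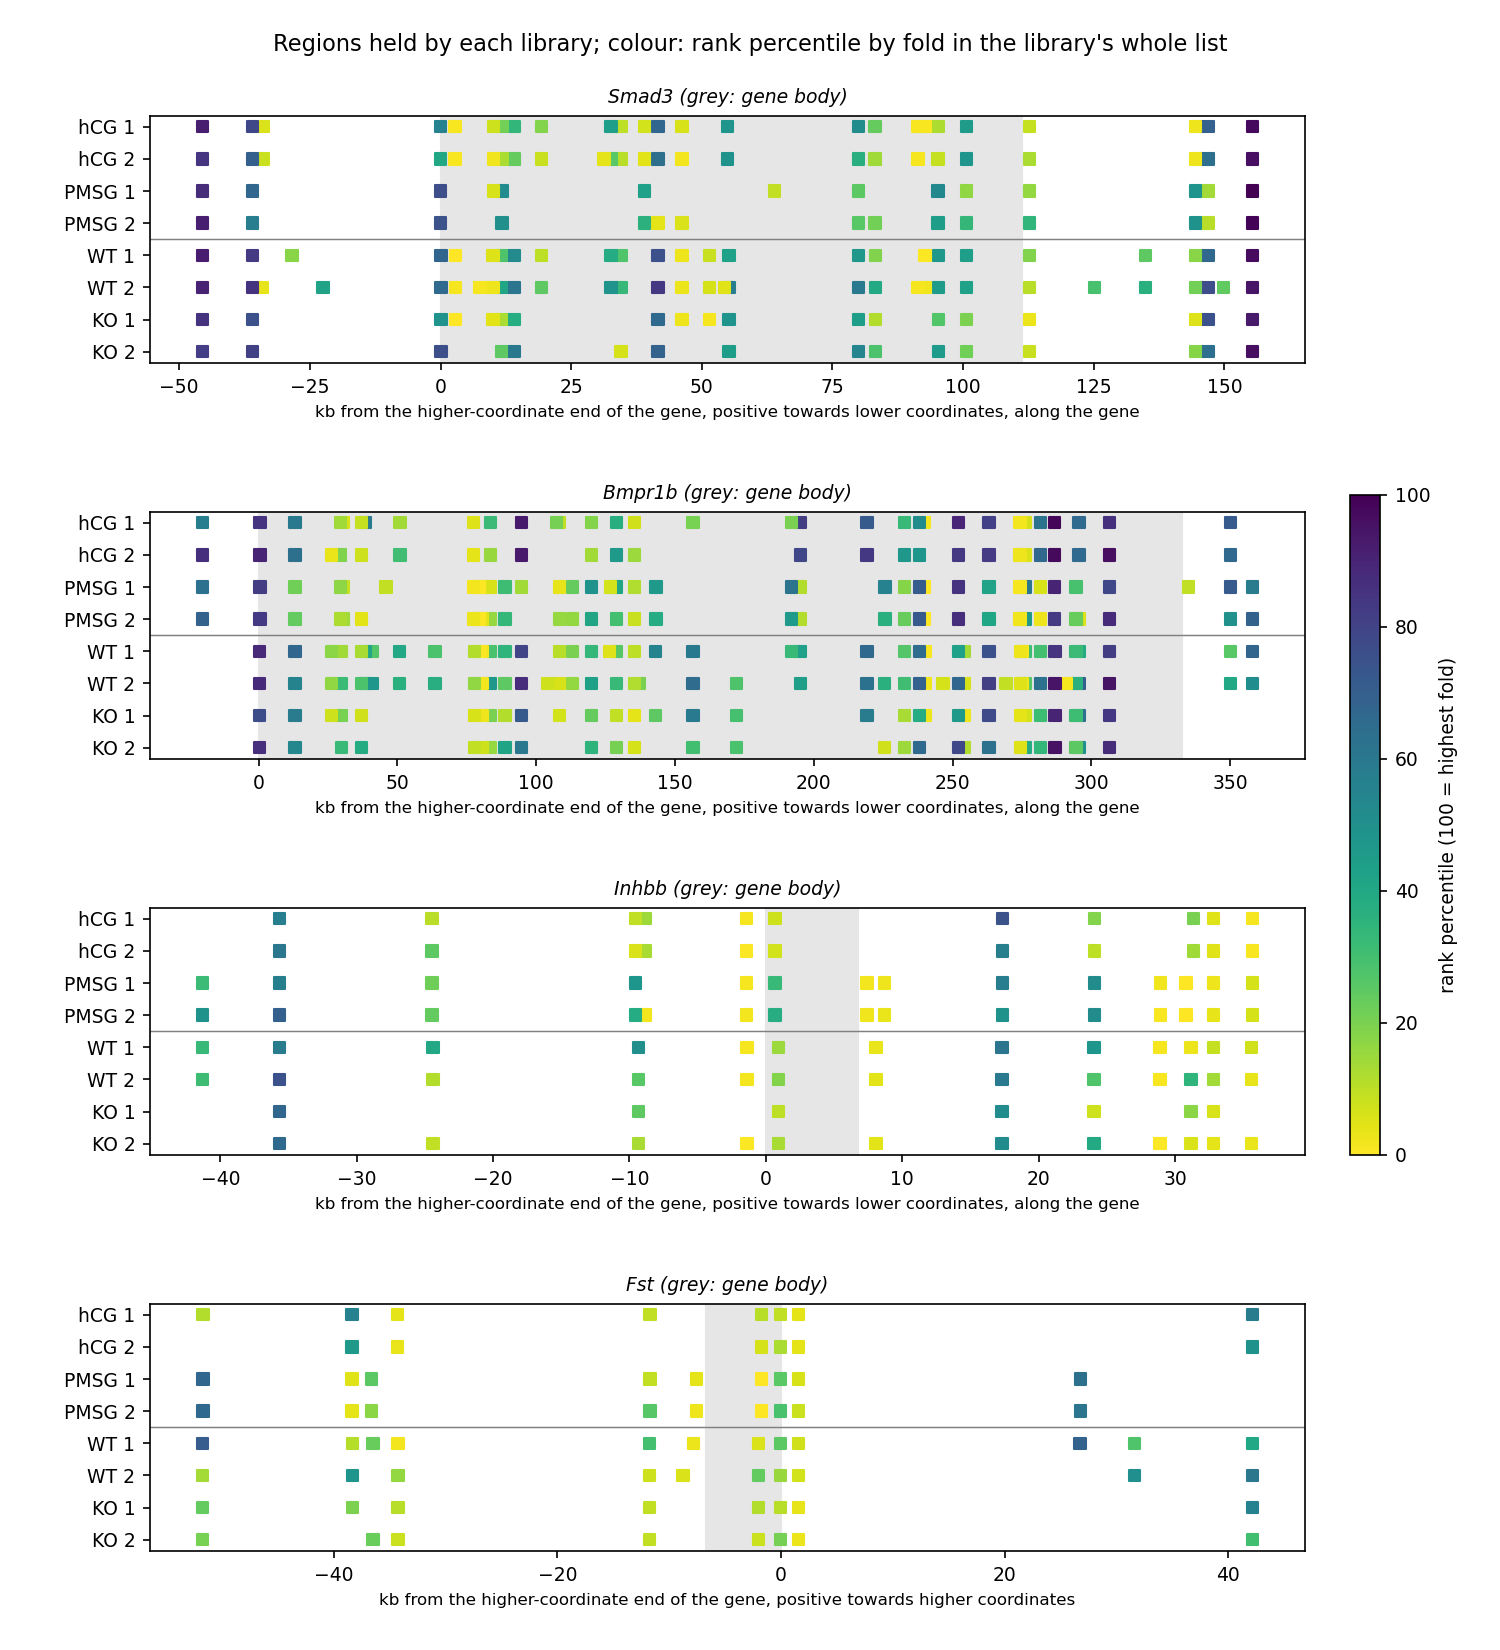
Regions held by each of the 8 libraries (rows) along the windows of Smad3, Bmpr1b, Inhbb and Fst, with distance in kb from the higher-coordinate end of the gene on the x axis and colour giving the rank percentile by fold in the library's whole list. Within Smad3 the column at 54.9 kb is filled in both hCG and all 4 PR rows and empty in both PMSG rows, and in the Fst panel a square at 26.7 kb appears in PMSG replicates 1 and 2 and WT replicate 1 only.

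For the type 2 receptors, the region with the largest gap between groups in the Amhr2 window, chr15:102398319-102400141, 46.1 kb before the start, was at percentile 31.8 and 19.5 in hCG and 80.6 and 78.7 in PMSG. In the Bmpr2 gene body, chr1:59801791-59802267 was at 30.6 and 37.3 in hCG and 1.18 and 1.03 in PMSG. Before the Bmpr2 start, a hCG-only interval at chr1:59746805-59747047 and a PMSG-only interval at chr1:59747135-59747483 lay side by side. Each of the 4 PR libraries had a peak that reached both, so these count as 2 regions in the LH and 1 in the PR experiment. In lists of the same length that PR region was at 34.1 and 58.0 in WT and 18.8 and 18.4 in KO, the largest gap with WT higher in these windows. The largest gap with KO higher was at chr1:75467390-75468140 in the Inha window, at 16.0 and 20.7 in WT and 39.4 and 34.5 in KO. Of 85 shared regions, 4 ranked higher in WT and 20 in KO. The Acvr2a window held 4 regions, and its 1 hCG-only region, chr2:48915875-48916331 at 65.9 and 73.4 of the whole hCG lists, lay in the neighbouring gene Orc4 and was held by all 4 PR libraries. In the Amh window the largest gap lay in Dot1l, chr10:80774292-80774906, at 25.3 and 22.6 in hCG and 81.0 and 84.6 in PMSG, and the PMSG-only region of highest rank, chr10:80818877-80819211 at 57.3 and 52.7 of the whole PMSG lists, lay in no coding gene.

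In the PR experiment the windows held 195 regions, and 104 were held by all 4 libraries. With all peaks 22 regions (11.3%) were WT-only against a background of 12.1%, and 0 were KO-only against 0.0842%. In lists of the same length, 6 of 155 (3.87%) were WT-only against 2.78%, and 5 (3.23%) were KO-only against 2.5%. Among shared regions with all peaks, 47 of 104 (45.2%) ranked higher in both WT libraries against 44.9%, and 1 (0.962%) higher in both KO libraries against 1.98%. With lists shortened to the same length these were 4 of 85 (4.71%) against 10.7%, and 20 (23.5%) against 20.6%. The direction of the rank difference among shared regions therefore turned with the length of the lists, for these windows as for the genome. The excess of WT-only over KO-only regions shrank to 6 against 5 here, and to 1914 against 1718 over all regions, in lists taken by −log10 q. In lists taken by fold it turned round in these windows, with 6 WT-only (3.85%) and 23 KO-only (14.7%) regions against 4.25% and 4.16% of all. The WT lists are the longest of the 8, and whether this accounts for the WT-only counts with all peaks was not tested. With all peaks, leaving out WT replicate 1 gave 43 WT-only regions (22.6%, against 25.1% of all) and leaving out KO replicate 2 gave 37 (19.1%, against 16%), and leaving out KO replicate 2 gave 86 of 115 shared regions ranked higher in WT (74.8%, against 68.3%). Leaving out WT replicate 2 or KO replicate 1 gave 3 (1.69%, against 0.565%) or 2 (1.02%, against 0.563%) KO-only regions. Shared regions ranked higher in KO numbered 4 of 107 (3.74%, against 6.11%) and 15 of 104 (14.4%, against 8.62%) without WT replicates 1 and 2. They were 22 of 120 (18.3%, against 16.4%) and 2 of 115 (1.74%, against 8.81%) without KO replicates 1 and 2.

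At the start sites and gene ends the genotypes mostly overlapped, and KO replicate 2 ranked above KO replicate 1 at each. At the Acvr2a start the WT replicates also stood apart, at 82.7 and 68.9, with KO at 69.1 and 80.2. In lists of the same length the Smad3 start was at 53.7 and 48.3 in WT and 45.6 and 75.9 in KO, and the Bmpr2 start at 51.2 and 57.8 in WT and 39.6 and 65.1 in KO. No PR region reached an end of Amh, so Amh is not among the 10 regions counted here. All 4 PR libraries did have a peak overlapping the Amh region of the LH experiment. It was at 42.6 and 51.9 (WT) and 27.4 and 53.6 (KO) of their whole lists. Of the 10 regions, 3 ranked higher in both KO libraries and 0 higher in both WT libraries. The 3 were the region before Inha (4.24 and 5.70 in WT, 11.2 and 38.4 in KO), the Inhbb start (4.81 and 4.74 in WT, 7.07 and 12.9 in KO) and the Amhr2 start (9.16 and 6.88 in WT, 10.1 and 16.7 in KO). The Inha region overlaps the start window only through WT replicate 1 (7 bases) and KO replicate 1 (89 bases), so the values of the other libraries come from peaks that do not reach it. Over all genes 23.3% of 9871 shared start-site regions ranked higher in KO and 4.63% higher in WT.

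By gene, the 22 WT-only regions with all peaks were 9 in Bmpr1b, 4 in Smad3, 3 in Bmpr2, 2 in Inhba, 1 each in Inha, Inhbb, Fst and Amhr2, and 0 in Amh and Acvr2a. Leaving out a library asks less of a region, so counts of either kind can rise whichever library is left out. Over all regions the WT-only share rose from 12.1% to between 16% and 25.1%. Without WT replicate 1 the excess of WT-only over KO-only regions was 15 in Bmpr1b, 11 in Smad3, 4 in Inha and 2 each in Inhbb, Fst and Amhr2. Without KO replicate 2 it was 7 in Amh, 6 in Inhbb, 2 in Inha and 1 in Acvr2a. Without KO replicate 1 it was 8 in Smad3, 2 in Fst, 1 in Amh and 0 in Inhba, and without WT replicate 2 it was 3 in Fst and 1 in Amh. Amh had an excess of 1 without WT replicate 1 as well. With the lists at 1 length Bmpr1b had 3 WT-only and 3 KO-only regions, Amhr2 had 1 and 1, Bmpr2 and Smad3 had 1 and 0, Fst had 0 and 1, and the other 5 genes had 0 of either. With peaks taken by fold, WT-only minus KO-only regions came to -4 in Inha and Fst, -3 in Inhba, -2 in Inhbb, Amhr2 and Bmpr1b, -1 in Amh, 0 in Bmpr2 and Acvr2a and 1 in Smad3. The Bmpr2 and Smad3 regions were chr1:59846475-59846704, 82.3 kb into Bmpr2, at 22.5 and 38.3 of the WT lists of that length, and chr9:63725222-63725502, 32.6 kb into Smad3, at 15.8 and 22.0. Both overlap hCG-only regions of the LH experiment.

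No library is shared by the 2 experiments, so the LH group-only regions were looked up in the PR lists. Of the 28 hCG-only regions of these windows in lists of the same length, 15 (53.6%), 23 (82.1%), 14 (50%) and 16 (57.1%) were held by WT replicate 1, WT replicate 2, KO replicate 1 and KO replicate 2, where all 12166 hCG-only regions gave 59.2%, 74.8%, 65.9% and 49.4%. Of the 38 PMSG-only regions, 19 (50%), 6 (15.8%), 11 (28.9%) and 23 (60.5%) were held in the same order, against 41.2%, 13.9%, 23% and 40.4% of all 10450. At that length WT replicate 1 and KO replicate 2 held more of the PMSG-only regions than WT replicate 2 and KO replicate 1, both in these windows and in the genome. With all peaks the order was another: WT replicates 1 and 2 held 85.7% and 53.6% and KO replicates 1 and 2 held 17.9% and 50%, against 76.6%, 45.6%, 21.5% and 34.7% of all, so both WT libraries, whose lists are longer, lay above both KO libraries. With all peaks, 4 of the 33 hCG-only regions (12.1%, against 16.4% of all) were held by both WT and neither KO library: 1 in Bmpr2, 1 in Bmpr1b and 2 in Smad3. The same held for 5 of the 28 PMSG-only regions (17.9%, against 13.5%), namely 2 in Bmpr1b and 1 each in Inhba, Inhbb and Amhr2. At the same list length these were 2 of 28 hCG-only (7.14%, against 5.63%) and 2 of 38 PMSG-only regions (5.26%, against 1.31%), and another 2 PMSG-only regions (5.26%, against 3.13%) were held by both KO and neither WT library. For Smad3 the 8 hCG-only regions with all peaks were held in 6 and 8 cases by WT and in 3 and 3 by KO, read with the greater length of the WT lists. Of all 14473 hCG-only regions, 79.9% and 91.3% were held by WT and 63.4% and 44.7% by KO. For the 33 of these windows the shares were 75.8% and 97% in WT and 51.5% and 54.5% in KO.

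**Figure D4:**
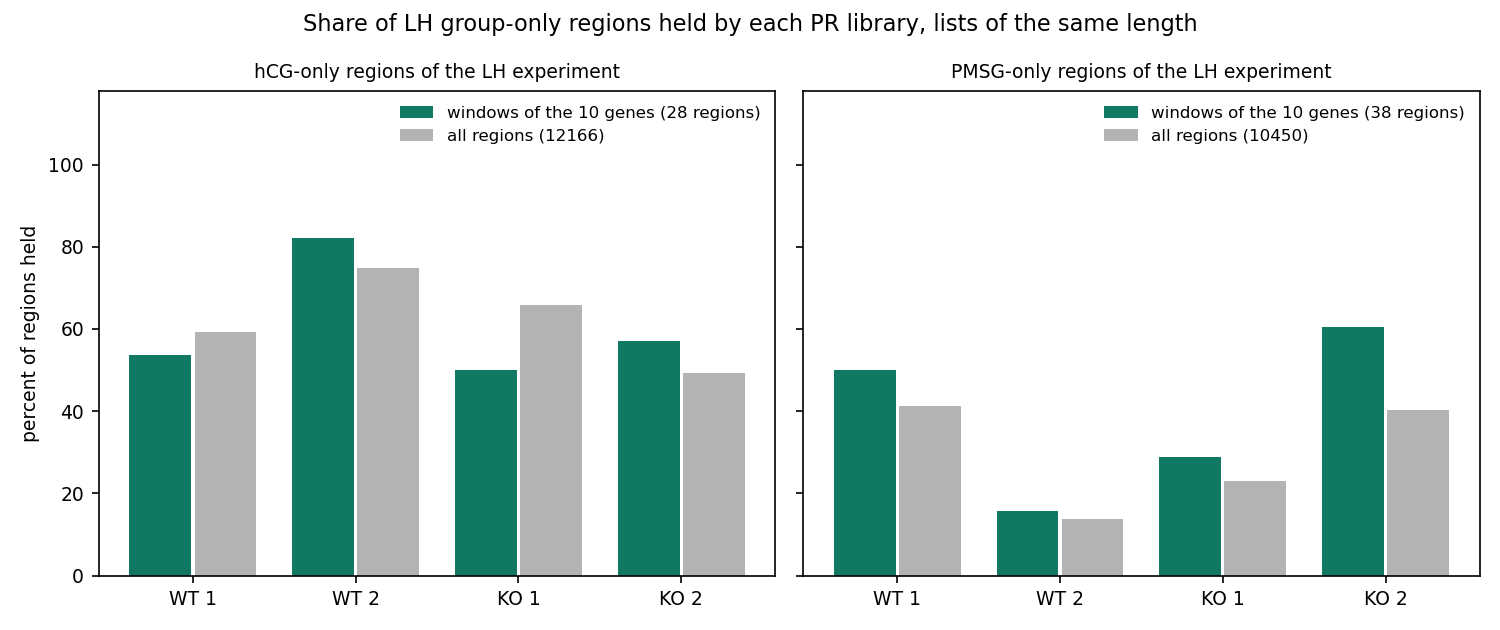
Percent of the LH group-only regions (y axis) that have a peak in each PR library (x axis), for the windows of the 10 genes and for all regions, with lists of the same length within each experiment. For PMSG-only regions WT replicate 1 (50%) and KO replicate 2 (60.5%) stand above WT replicate 2 (15.8%) and KO replicate 1 (28.9%).

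The windows of 38 other genes of the family were counted in the same way and read against the shares over all regions (17.7% hCG-only and 10.4% PMSG-only with all peaks, 15.6% and 13.4% in lists of the same length). The windows of 7 other SMAD genes held 19 hCG-only (19.6%) and 6 PMSG-only (6.19%) regions among 97, and 15 (17%) and 8 (9.09%) among 88 in lists of the same length. For 8 further receptors and co-receptors the counts were 19 (16.7%) and 13 (11.4%) among 114, and 19 (17.3%) and 14 (12.7%) among 110, near the shares of all regions. The 11 other ligands held 6 (7.14%) of each kind among 84, and 5 (6.49%) and 9 (11.7%) among 77. The 6 antagonists held 6 (16.2%) and 2 (5.41%) among 37, and 5 (13.9%) and 3 (8.33%) among 36, and 6 targets and co-factors held 11 (12.5%) and 4 (4.55%) among 88, and 11 (13.3%) and 6 (7.23%) among 83. The PMSG-only share was thus below that of all regions in 4 of these 5 lists with all peaks and slightly above it in the receptors, and it was below in each of the 5 in lists of the same length. In the PR experiment with all peaks, between 5.51% (receptors) and 9.47% (targets) of the regions of each list were WT-only, against 12.1% of all, and none was KO-only, against 0.0842% of all. In lists of the same length the WT-only and KO-only regions numbered at most 2 and 3 in any of the 5 lists. The highest shares were 2.63% WT-only (targets) and 4.11% KO-only (SMADs), against 2.78% and 2.5% of all regions.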

How the data were processed

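Per the submitters' processing notes, Bowtie2 and MACS2 were used with the build mm10; versions, filters and any shift of reads for the Tn5 cut are not given in the sources used here. The authors deposited 1 narrowPeak list per library, so replicates were called separately. Column 7 of the deposited lists was read as the fold enrichment at a summit, a linear ratio to the local background of the caller, and columns 8 and 9 as −log10 of a p-value and a q-value, with none under 10 for the q-value. Peak names in the PR lists mention filtering and marked duplicates whereas LH names carry no such words, so the 2 experiments may have been processed differently by the authors. The lists hold no read counts, so depth and the precision it gives are unknown.

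From these files, summits sharing an interval were joined with the best fold and −log10 q, and intervals on chromosomes 1 to 19 and X were ranked within each list. Within an experiment, overlapping intervals (1 bp) formed a region, held by each library with a peak there. A group-only region was held by both libraries of a group and neither of the other. A shared region was held by all 4, and ranked higher or wider in a group where both of its values lay above both of the other's. Percentiles of single regions come from lists of the same length, taken by column 9, except where a whole list or a library's own list is named. Whole lists differ in length. A region of whole lists was given the highest percentile of the same-length regions that overlap it. Gene bodies and start sites came from RefSeq (GRCm38.p6), with coordinates counted from 1. Exons and introns were not told apart, and only the 8 genes with a promoter entry have a strand. Start-site regions overlap the 300-base promoter window.

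Regions were named by rule, per gene and experiment: those at a start site or gene end, the group-only region of highest mean percentile in its group, and the shared region with the largest gap between groups in each direction, among those with a peak in all 4 lists of the same length. Further regions of Smad3 are those of its hCG-only count, and the Bmpr2 pair was named by the same rule. Not all PR regions named by the rule are described. The genes and lists were chosen with earlier results of these data known. Alternatives were lists of the same length, −log10 q of 20 or more, a library holding a region only where it covered 50% of it, windows of 10 kb or of the gene body, rank by column 9, and each library left out; the count of wider regions was added after the data were seen. Python 3.11.15, numpy 2.4.6, pandas 2.3.3 and matplotlib 3.10.9 were used, and the counting was tested on simulated lists.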

Additional observations from a re-analysis of the deposited data

How the results depend on the processing

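No paired analysis was possible because no value comes from a test, and no label says that a replicate number marks a shared litter, batch or day. Of the values for whole windows, 82 alternatives kept the value, 46 moved it and 4 reversed it; of the per-gene differences, 113 kept it, 77 moved it and 10 reversed it. Taking the same number of peaks by fold gave 16 hCG-only (9.52%, against 15.3% of all), 6 WT-only (3.85%, 4.25%) and 23 KO-only regions (14.7%, 4.16%). Of 58 shared regions 4 ranked higher in WT (6.9%, 11%) and 11 in KO (19%, 19.9%), and 12 of 62 were wider in PMSG (19.4%, 10.4%). The median rank difference of WT minus KO was -3.31, against -1.88 over all shared regions. With all peaks it was 7.15, against 8.05. The median width ratio of hCG over PMSG was 1.14. With all peaks it was 1.08, against 1.17 over all shared regions. Taking peaks by fold reversed the difference of group-only regions in Inhba (-2) and Amh (-1) in the LH experiment and in Inha (-4), Inhba (-3), Inhbb (-2), Fst (-4), Amhr2 (-2) and Bmpr1b (-2) in the PR experiment. By −log10 q the counts were 6 WT-only, 5 KO-only, 4 higher in WT and 20 higher in KO. The median of WT minus KO was then -3.89, against -1.9 over all shared regions, and Fst was reversed (-1). With peaks of −log10 q of 20 or more, 0 of 86 ranked higher in KO (2.06% of all). Where 50% of the region had to be covered, 51 were hCG-only (27.4%, against 23.4% of all), 2 KO-only (1.03%, 0.346%), 16 of 64 higher in hCG (25%, 27.1%), 0 of 82 higher in KO (2.17% of all) and 27 of 64 wider in hCG (42.2%, 61.8%). Windows of 10 kb gave 18 hCG-only regions (15.7%, 17.7%) and 18 PMSG-only ones (15.7%, 10.4%), of 48 shared regions 17 higher in hCG (35.4%, 32.4%), 22 in PMSG (45.8%, 39.4%), 23 wider in hCG (47.9%, 64.2%) and 9 in PMSG (18.8%, 11.7%), 29 of 62 higher in WT (46.8%, 44.9%), and the median rank difference of hCG minus PMSG was 0.54 (-2.19 as reported). In gene bodies alone 14 were hCG-only (15.4%) and 11 PMSG-only (12.1%), and of 38 shared regions 16 were higher in hCG (42.1%), 14 in PMSG (36.8%), 19 wider in hCG (50%) and 7 in PMSG (18.4%), with 20 of 52 higher in WT (38.5%), read against the same shares of all; the median was 2.27, and Amhr2 was reversed (-1); a smaller window holds fewer regions. Ranked by −log10 q, the median of hCG minus PMSG was -5.13, against 0.032 over all shared regions. Ranked by fold with all peaks, all shared regions gave -1.16, the value to read beside -2.19, 0.54 and 2.27. Leaving out each library gave width ratios of 1.06 to 1.12 (LH) and 1.001 to 1.17 (PR), 32 to 43 WT-only and 0 to 3 KO-only regions, 62 to 86 higher in WT (55.8% to 74.8% of those shared, against 58.7% to 68.3% of all) and 2 to 22 higher in KO. Other causes of these moves were not tested, and unknown depth limits every statement of absence.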

Other observations

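The peaks around the 10 genes stood low in their lists by fold and in the middle by significance. The median rank percentile by fold of the intervals in these windows was 20.2 and 25.1 in hCG, 21.9 and 25.1 in PMSG, 28.1 and 28.9 in WT and 23.2 and 22.2 in KO, where 50 would be the middle of a list. By −log10 q the same intervals had medians of 50.5 and 50.3 in hCG, 47.5 and 47.5 in PMSG, 49.7 and 46.4 in WT and 53.8 and 42.7 in KO. Of the 207 regions over all 8 lists, 22 were held by a single list, against 14085 of all 98245 regions.

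Further regions inside the type 1 and type 2 receptor genes, picked after their values were seen, separated the hormone groups. In Bmpr1b, chr3:142074656-142075061 was at percentile 92.2 and 92.5 in hCG in lists of the same length, with an authors' fold of 14.9 and 15.1, and PMSG replicate 1 had it at 14.0 with a fold of 5.57 while PMSG replicate 2 lacked it. All PR libraries held it in their whole lists, at 79.7 and 87.3 in WT and 72.1 and 60.0 in KO. In Bmpr2, chr1:59801791-59802267, given above as higher in hCG, is followed by chr1:59803966-59804899. The latter, in lists of the same length, was at 4.69 in hCG replicate 1 and 66.5 and 66.6 in PMSG, and hCG replicate 2 had no peak there. With all peaks each of the 4 libraries held it, and peaks covered 617 and 395 bp against 894 and 934 bp. The PR libraries held it at 64.0 and 57.5 (WT) and 40.1 and 79.0 (KO) of their whole lists, which differ in length. The whole hCG lists had 7.69 and 3.91 and the whole PMSG lists 66.5 and 67.1.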
